A study of Mus musculus with 8 samples.

Results

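TRBV14 is one of the variable (V) gene segments of the mouse T cell receptor (TCR) β chain, also known by its older name Vβ13. TRBV14 chains were taken as every cell barcode without a multiplet mark whose TRB chain was called TRBV14. They numbered 9677 of the 188544 barcodes with a TRB chain, or 5.13%. Of these, 3934 were recorded in thymus, 874 in spleen and 4869 in tumor. They carried 4789 distinct chains, a chain being a V gene, a J gene and a CDR3 amino acid sequence. A paired TRA chain was present in 3228 of the barcodes (33.4%), which gave 2641 paired clonotypes when each table was counted on its own. The members were thus chosen by the V segment call itself, so the usage of TRBV14 is given as a description and was not tested.

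The libraries came from CD8+ T cells of C57BL/6 mice that were Pdcd1fl/fl or Pdcd1 cKO, the latter being Pdcd1fl/fl with an E8I CD8-Cre that removes the gene of the inhibitory receptor PD-1 in CD8+ T cells. Thymus and spleen cells were collected at baseline, and thymus and tumor cells from mice carrying the melanoma line B16-F10 or its ovalbumin-expressing form B16-OVA. Thymic and splenic cells were enriched with a CD8a+ kit (a kit for naive cells is also named for spleen) and tumor-infiltrating cells with CD8 (TIL) microbeads. The 8 labelled samples are sublibraries that each mix all 14 deposited tables, and the labels give neither the genotype nor the tumor model of any of the 7 mice, so values are given per table and no group was formed. Mouse and tissue were read from the name of each table. Every mouse has a thymus table. The second table was of spleen for mouse-155C and mouse-155A, and of tumor for the other 5 mice. The barcode tables hold TCR chains, so marker genes of CD8+ T cells were not analysed here. Tables held 5281 to 29894 barcodes with a TRB chain, both ends of this range being tumors. A table has no replicate, cells of 1 table are not replicates, and intervals are exact (Clopper–Pearson) 95% intervals that cover counting error only. Where a count was 0, the share that it allows is given as 3 counts of the total, which lies below the upper end of the exact interval.

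A β chain gene is assembled in developing thymocytes by joining a D segment to a J segment and then a V segment to the joined DJ. Recombination signal sequences beside each segment guide the cuts, ends are trimmed and non-templated bases are added, so the CDR3 that spans the joint differs from cell to cell. The assembled β chain is then paired with an α chain, and a shared pair of CDR3 sequences marks cells as one clonotype.

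In the GENCODE annotation of GRCm39, TRBV14 (ENSMUSG00000076471.4) lies on the plus strand of chromosome 6 at 41112079 to 41112550, in exons at 41112079 to 41112149 and 41112254 to 41112550. Shown first are the last 30 bases of the gene (chr6:41112521-41112550), with the 16 bases that lie within the CDR3 in capitals. In frame these run from the Cys codon that opens the CDR3 to a Phe codon at its position 5 and 1 further base, and the results on the CDR3 start return to that Phe. The 39 bases that follow the gene (chr6:41112551-41112589) are shown with the first 7 and the last 9 in capitals, the places of the heptamer and the nonamer of a recombination signal. TRBJ1-2 (chr6:41510935-41510982) is shown because its share was low among TRBV14 chains, and TRBJ2-7 (chr6:41520744-41520790) because it was their most frequent J segment, each with the CDR3 part in capitals.
TRBV14 end: cagccacctatctcTGTGCCAGCAGTTTCT
After TRBV14: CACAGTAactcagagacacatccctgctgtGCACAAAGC
TRBJ1-2: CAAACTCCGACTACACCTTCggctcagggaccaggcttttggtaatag
TRBJ2-7: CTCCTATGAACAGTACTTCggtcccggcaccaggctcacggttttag

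TRBV14 took a similar share of barcodes in every thymus and a widely varying one in tumors. Among thymus tables the share was highest in mouse-155A (5.10%), followed by mouse-160B (4.74%), mouse-160A (4.64%), mouse-164C (4.43%), mouse-164B (4.28%), mouse-155C (4.22%) and mouse-160C (4.21%). The spread over these 7 tables was less than 1 percentage point, with a median of 4.43%. In spleen the share was 5.02% in mouse-155A and 5.31% in mouse-155C. In tumors it was 9.98% in mouse-160C, then 6.89% in mouse-164B, 5.13% in mouse-160B, 4.31% in mouse-164C and 3.31% in mouse-160A. Thus the lowest and the highest value of all 14 tables both came from tumors, and the spleen or tumor exceeded the thymus of the same mouse in 4 of 7 mice. The intervals of the 2 tissues, which take barcodes of 1 clone as separate draws, did not overlap in 4 mice. They ran from 3.86 to 4.57% in the thymus and from 9.48 to 10.5% in the tumor of mouse-160C. In mouse-160A the order was the other way round, from 4.15 to 5.18% in the thymus and from 2.85 to 3.83% in the tumor.

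**Figure D1:**
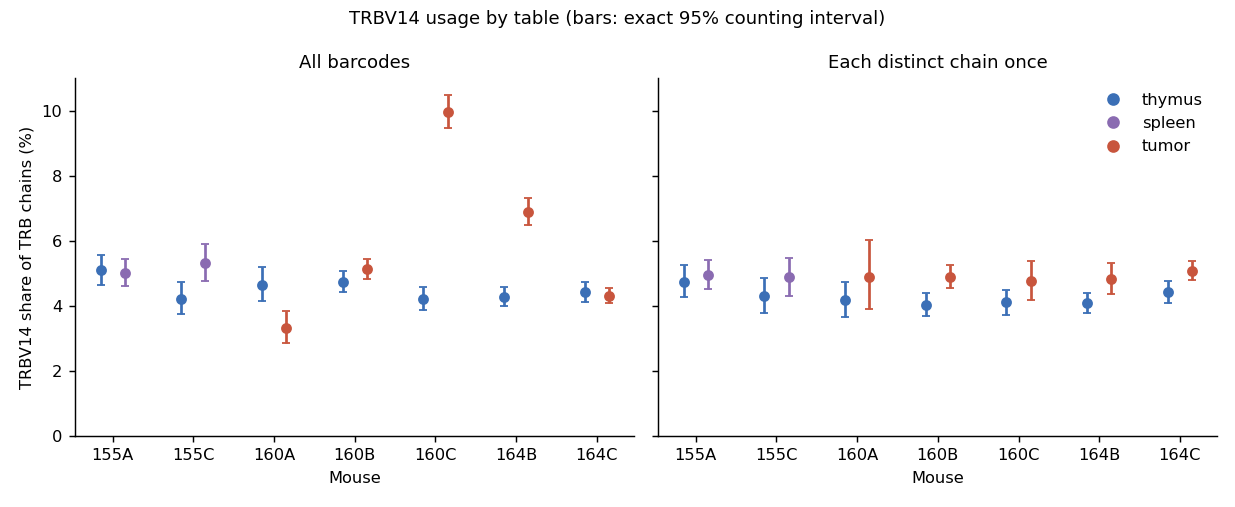
TRBV14 share of TRB chains (y axis, percent) in the thymus, spleen and tumor tables of each mouse (x axis), over all barcodes on the left and with each distinct chain counted once on the right. Points are tables and bars are exact 95% counting intervals. The tumor of mouse-160C stands at 9.98% by barcodes and at 4.75% by distinct chains.

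When each distinct chain was counted once, the tumor values drew together and the spleen or tumor exceeded the thymus in all 7 mice. Thymus shares then ran from 4.03 to 4.74% (median 4.18%) and spleen and tumor shares from 4.75 to 5.08% (median 4.87%), so the ranges did not overlap. The difference within a mouse was between 0.208 percentage points in mouse-155A and 0.861 in mouse-160B. Intervals of the 2 tissues were apart only in mouse-160B and mouse-164C. With at least 2 transcripts per chain the spleen or tumor was the higher in 6 of 7 mice, and without 1 sublibrary in 6 to 7. By paired clonotypes it was also the higher in 6, with a difference of -0.147 percentage points in mouse-155A. Without chains found in more than 1 mouse it was the higher in 4 mice by paired clonotypes and in 7 by distinct chains. A rise in all 7 mice was seen for 4 of the 19 TRBV genes with a median barcode share of at least 1%, a background of 21.1%, the others being TRBV15, TRBV16 and TRBV29. TRBV2, TRBV4, TRBV5, TRBV19 and TRBV20 were lower in all 7 mice (26.3%). Shares of 1 sample sum to 100%, so the fall of some V genes and the rise of others cannot be told apart.

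A few large chains set the tumor values by barcodes. In mouse-160C tumor, 3 chains held 1072 of the 1345 TRBV14 barcodes (79.7%), and TRBV14 made up 2.20% of the table without them. These were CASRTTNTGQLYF with 443 barcodes, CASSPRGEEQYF with 348 and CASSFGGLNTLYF with 281. In mouse-164B tumor the chain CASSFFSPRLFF held 209 of 999 barcodes. In mouse-160A tumor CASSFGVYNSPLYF held 45 of 175. Barcodes per distinct TRBV14 chain were 5.58, 2.71 and 2.16 in these 3 tables and between 1.15 and 1.44 in the other 11. In no table was the most frequent TRB chain of any V gene a TRBV14 chain.

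In the order of median thymus share by barcodes TRBV14 came after TRBV12-2 (5.03%, range 4.63 to 5.56%) and before TRBV5 (4.16%, range 3.60 to 4.45%). The ranges of both neighbours overlapped that of TRBV14. Over the 14 tables the V genes whose share followed that of TRBV14 most closely were TRBV1 (Spearman's rho 0.49), TRBV13-3 (0.37) and TRBV29 (0.20). With each distinct chain counted once these became -0.05, 0.43 and 0.73, and the highest value was that of TRBV16 (0.86, and -0.11 by barcodes), a gene named after its values were seen. The order thus differed with the unit counted. These values are descriptive, since tables of a mouse share an animal and all shares of a table have 1 sum. By sublibrary TRBV14 ran from 4.74 to 5.43%.

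Large chains of 1 tumor were also recorded at low transcript counts in other mice, and this bears on every count of barcodes below. In this split-pool method the first barcode round marks the sample, and the later rounds and the sublibrary separate its cells. Of the TRBV14 barcodes, 2362 (24.4%) shared both later wells, the sublibrary and the TRB chain with a barcode of another table, and 23.9% of barcodes with other TRBV genes did so. In 1066 of them the chain had fewer transcripts than in the matching barcode, and 1049 of these had 1 transcript. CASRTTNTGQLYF was recorded in 186 barcodes of mice other than mouse-160C, of which 87 (46.8%) matched the wells and sublibrary of a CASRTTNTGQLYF barcode of mouse-160C tumor. Of TRBV14 barcodes of those mice with other chains, 0.577% did. The part of such barcodes in the results was not tested beyond the recounts given in the closing section.

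TRBJ1-2 was the J segment in which TRBV14 chains differed most from chains of other TRBV genes. It made up 1.29 to 6.17% of distinct TRBV14 chains and 6.66 to 8.48% of other distinct chains over the 14 tables. In thymus the lowest TRBV14 value was 1.29% in mouse-160A, the median 3.08% and the highest 4.78% in mouse-155C. In spleen and tumor the lowest was 2.99%, the median 3.44% and the highest 6.17%, the last from 5 of only 81 chains in mouse-160A tumor. The TRBV14 share was the lower in 14 of 14 tables, and the intervals were apart in 10. Counted over barcodes it was the lower in 13. Such a separation of ranges was seen for 1 of 12 TRBJ genes (8.33%). Pooled over the thymus tables, 104 of 3100 distinct TRBV14 chains (3.35%, 2.75 to 4.05%) and 7.46% of other chains used TRBJ1-2, a ratio of 0.45.

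A low TRBJ1-2 share was not limited to TRBV14. Among 19 TRBV genes the pooled thymus share was lowest in TRBV15 (3.11%), followed by TRBV14 (3.35%), TRBV5 (3.49%) and TRBV17 (3.85%), whose intervals overlapped. It was highest in TRBV12-1 (12.4%).

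The J segments used most by TRBV14 in thymus were TRBJ2-7 with a median of 18.3%, TRBJ2-5 with 13.9% and TRBJ2-1 with 13.1%. Medians of other TRBV genes for these were 18.1%, 10.98% and 11.97%. TRBJ2-5 was higher in TRBV14 in 12 of 14 tables and TRBJ2-1 in 9. After TRBJ1-2, the ratio farthest from 1 was that of TRBJ1-6, at 1.23, and the ranges of both sets of chains overlapped. The TRBJ2 cluster as a whole held 67.1% (65.4 to 68.7%) of TRBV14 and 63.0% of other thymus chains, and was higher in TRBV14 in 13 of 14 tables, mouse-155A thymus being the exception. From thymus to spleen or tumor its share rose in 6 of 7 mice, in TRBV14 chains and in other chains alike, to 72.3% and 66.7% in the pooled tumor tables.

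**Figure D2:**
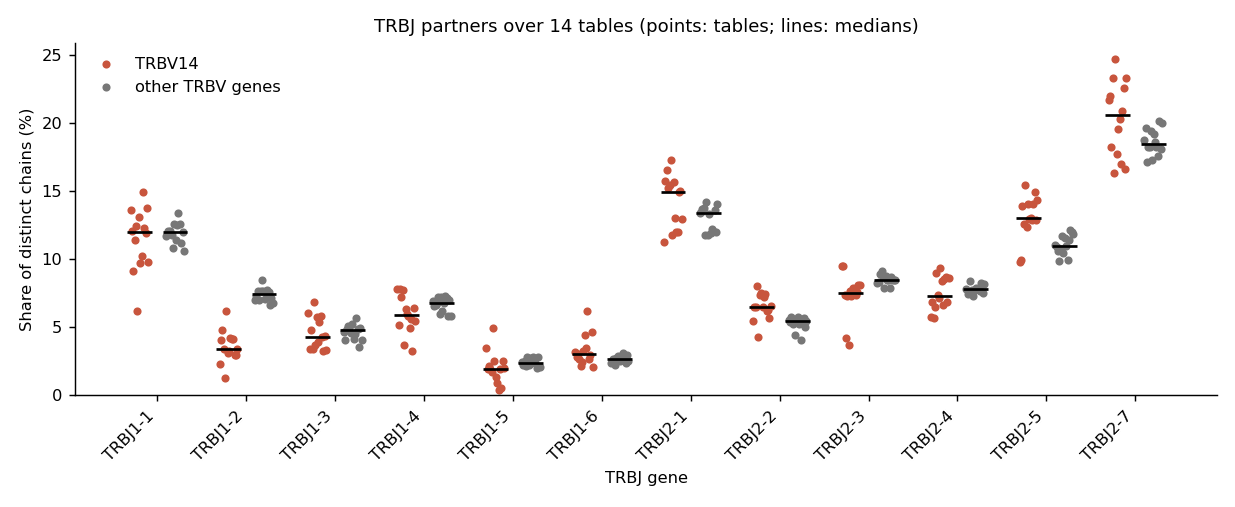
Share of distinct chains (y axis, percent) by TRBJ gene (x axis), for TRBV14 chains and for chains of all other TRBV genes. Points are the 14 tables and lines are medians. Points of TRBJ1-2 lie at 1.29 to 6.17% for TRBV14 and at 6.66 to 8.48% for other genes, and for the 11 remaining J genes the ranges overlap.

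The D segment call was TRBD1 in 50.8% of TRBV14 thymus chains (49.0 to 52.6%) and in 44.8% of other thymus chains. It was TRBD2 in 24.7% and 29.4%, and no D segment was called in 24.5% and 25.8%. TRBD1 exceeded the other V genes in every table. TRBD1 lies before the TRBJ1 cluster and can join either cluster, while TRBD2 lies between them. Among chains with a TRBJ2 segment TRBD1 was called in 44.3% of TRBV14 and 34.7% of other chains, and among those with a TRBJ1 segment in 64.0% and 62.0%. These D calls rest on short stretches of G-rich sequence.

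TRBV14 CDR3s were shorter and less negatively charged than those of other V genes. Mean length in thymus was 13.70 amino acids (SD 1.40 over 3100 distinct chains) for TRBV14 and 14.005 (SD 1.58 over 70077) for other genes. TRBV14 was the shorter in 14 of 14 tables, the difference in mean (TRBV14 minus other) lying between -0.470 and -0.194 residues. It was also the shorter with each of the 12 J segments, from -0.129 residues with TRBJ1-5 to -0.444 with TRBJ2-2. By mean length it was the 4th shortest of 19 TRBV genes, after TRBV20 (13.24), TRBV29 (13.64) and TRBV13-3 (13.67). Mean net charge (Lys and Arg less Asp and Glu) was -0.50 in TRBV14 thymus chains and -0.84 in other chains, and TRBV14 was the higher in 14 of 14 tables.

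The start of the CDR3 carried the germline Phe. CASSF opened 29.4% of TRBV14 thymus chains (median 29.1%, from 25.7% in mouse-155C to 34.3% in mouse-160A) and 2.76% of other thymus chains. In spleen and tumor the lowest TRBV14 value was 26.1%, the median 30.4% and the highest 32.1%, so tissues overlapped. Next came CASSL with 17.9% of TRBV14 thymus chains, CASSP with 14.8%, CASSS with 6.61% and CASSR with 6.03%, against 19.9%, 10.2%, 5.07% and 4.58% of other chains. CASS itself opened 86.3% of TRBV14 and 69.1% of other thymus chains. The shares above are of all chains, so they also carry that difference and do not measure residue 5 alone. CASSP was lower in the spleen or tumor than in the thymus in 7 of 7 mice, with medians of 14.6% and 12.4%. CASSR was higher there in 7 of 7 mice, with medians of 5.59% and 7.47%. Among other V genes the spleen or tumor was the higher in 5 mice for CASSP and in 4 for CASSR. For CASSF, CASSL and CASSS it was the higher in 3, 3 and 5 mice in TRBV14 and in 7, 7 and 5 in other V genes. A shift to 1 side in all 7 mice was thus not limited to TRBV14.

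Nucleotide CDR3s showed how much of the germline end was kept. Of 2675 distinct TRBV14 thymus sequences, 26.3% kept 11 of the 16 germline bases, which leaves the last base of the second Ser codon and all of the Phe codon to the junction. A further 18.1% kept 12 bases, 19.4% kept 14 and 16.97% kept 15. All 16 bases were found in 6.73%. The median over 14 tables of the share with a whole V end was 6.64% in TRBV14 and 22.9% in other V genes, lower in TRBV14 in 14 of 14 tables. The mean number of missing bases differed less, at 3.19 against 2.95 from the V end and 3.16 against 2.89 from the J end. These are medians of the table means, and TRBV14 was the higher in 14 of 14 tables for both ends. The stretch between V and J had a median of 10.3 bases in both. A base added at random can match the germline, so kept bases are upper counts.

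**Figure D3:**
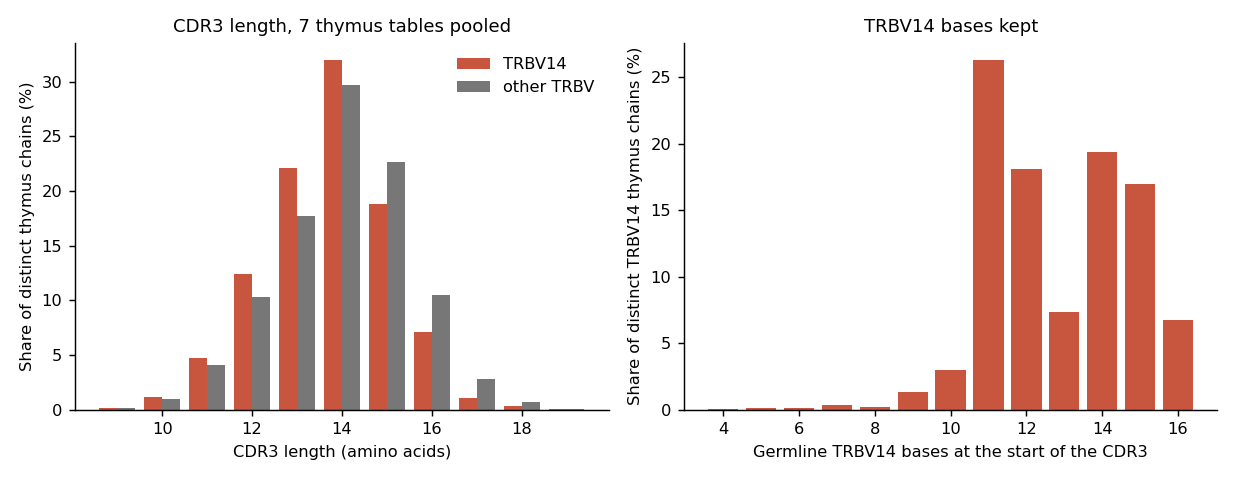
Left, CDR3 length in amino acids (x axis) against the share of distinct thymus chains (y axis, percent) for TRBV14 and other TRBV genes. Right, number of germline TRBV14 bases at the start of the CDR3 (x axis) against the share of distinct TRBV14 thymus sequences (y axis, percent). The right panel peaks at 11 bases (26.3%) and again at 14 (19.4%).

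TRA partners of TRBV14 were broad. The TRAV genes most often paired with it in the 1258 thymus clonotypes were TRAV12-1 (9.46%, 7.90 to 11.2%), TRAV3-1 (6.44%) and TRAV6-6 (5.80%). In the 27359 thymus clonotypes of other TRBV genes these had 7.96%, 6.20% and 4.09%. Of those 27359, 2338 (8.55%) paired TRAV11 with TRAJ18, against 1.19% of TRBV14 clonotypes. This lowers the shares of every other TRAV and TRAJ gene in the comparison set, and no recount without them was made. Of the 19 TRAV genes with at least 20 TRBV14 thymus clonotypes, TRAV6-6, TRAV9D-3 and TRAV12-2 were higher in TRBV14 in all 7 thymus tables (15.8%) and TRAV3-3 was lower in all 7 (5.26%). The ratio to other V genes was highest for TRAV4D-4 (2.21, 25 clonotypes) and TRAV6N-6 (2.14, 27 clonotypes) and lowest for TRAV3-3 (0.636) and TRAV14-2 (0.777). Each of TRAV4D-4 and TRAV6N-6 was higher in 5 of 7 tables. TRAV genes of the duplicated clusters are near copies, so a call between them is uncertain.

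Among TRAJ genes TRAJ22 led with 7.87%, followed by TRAJ30 (6.36%) and TRAJ28 (4.53%). With at least 2 transcripts per chain the share of TRAJ28 was 1.23%. Ratios were highest for TRAJ11 (1.77) and TRAJ9 (1.502), and lowest for TRAJ18 (0.305) and TRAJ48 (0.703). TRAJ18 was the only 1 of 26 TRAJ genes with at least 20 clonotypes to be lower in all 7 thymus tables (3.85%), at 3.02% (2.15 to 4.12%) of TRBV14 and 9.92% of other thymus clonotypes. None of the 26 was higher in all 7 tables (0.0%).

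TRAJ18 with TRAV11 forms the invariant α chain of NKT cells, which recognise lipids and are known to pair it mostly with TRBV13, TRBV29 and TRBV1 chains. This invariant NKT-like (iNKT-like) pairing was found in 15 of 1258 TRBV14 thymus clonotypes (1.19%, 0.669 to 1.96%) and in 2338 of 27359 others (8.55%). By table it was 0 of 102 in mouse-155A, which allows a share of up to 2.94%, and 0 of 53 in mouse-155C, which allows up to 5.66%. The largest count was 5 of 231 in mouse-160B, beside 4 of 268 in mouse-164C, 3 of 181 in mouse-160C, 2 of 328 in mouse-164B and 1 of 95 in mouse-160A. No thymus table exceeded 2.16%, and other V genes had 5.98 to 11.5%. Of the thymus clonotypes with TRAJ18, this pairing made up 15 of 38 in TRBV14 and 2338 of 2714 in other V genes. The low TRAJ18 share and the low iNKT-like share of TRBV14 are therefore not separate results. Among 19 TRBV genes the iNKT-like share was 29.9% in TRBV13-2, 14.7% in TRBV1, 14.2% in TRBV13-1, 13.4% in TRBV29 and 7.29% in TRBV13-3. The other 14 genes lay between 0.849% and 3.51%, TRBV14 being the 4th lowest. Spleen had 2 of 228 TRBV14 clonotypes and tumor 1 of 1155. The 18 iNKT-like TRBV14 cells carried 18 different TRB chains, each in 1 cell. The MAIT-like pairing of TRAV1 with TRAJ33 was not found with TRBV14 in any table. TRAV1 with any TRAJ gene was in only 14 of 27359 thymus clonotypes of other V genes (0.0512%), so this absence tells little.

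**Figure D4:**
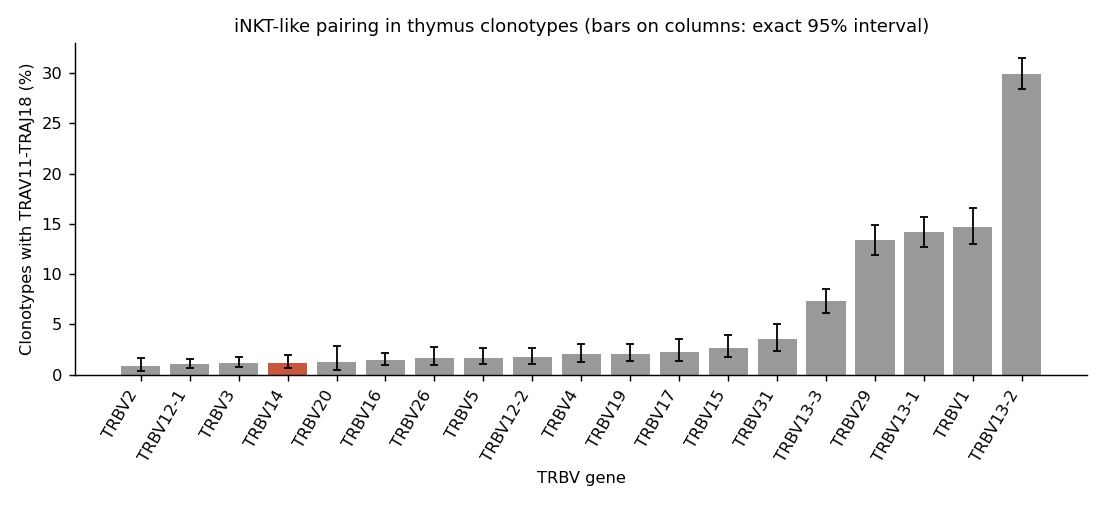
Share of thymus clonotypes with TRAV11 and TRAJ18 (y axis, percent) by TRBV gene (x axis), 7 thymus tables pooled, with TRBV14 in red and exact 95% counting intervals. TRBV14 (1.19%) is 4th from the left among 14 genes at or below 3.51%.

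TRBV14 clonotypes of several thymus cells were confined to 3 of the 7 mice as counted here. Mouse-160B had 7 such clonotypes with 64 of 288 paired TRBV14 thymus cells (22.2%, 17.6 to 27.5%). Mouse-160A had 2 with 12 of 105 cells (11.4%, 6.05 to 19.1%), and mouse-164B had 5 with 24 of 347 (6.92%, 4.48 to 10.1%). The same share among cells with other V genes was 4.56%, 2.66% and 2.38% in these mice. Cells of 1 clonotype are not independent draws, so the intervals are too narrow to weigh that difference. The largest clonotype held 30 of the 64 cells in mouse-160B, 10 of the 12 in mouse-160A and 9 of the 24 in mouse-164B. No TRBV14 clonotype of 2 cells was seen in the thymus of mouse-155A (102 cells), mouse-155C (53), mouse-160C (181) or mouse-164C (268), where 3 cells would make 2.94%, 5.66%, 1.66% and 1.12%. Pooled, 14 clonotypes held 100 of 1344 cells (7.44%), and other V genes had 2.08%. Without mouse-160B the values were 3.41% and 1.47%, with 7 clonotypes, and without mouse-164B 9 clonotypes remained.

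In tumors the share of TRBV14 cells in clonotypes of several cells was highest in mouse-160C (78.5%), then mouse-160A (57.1%), mouse-164B (48.3%), mouse-160B (27.7%) and mouse-164C (3.99%). Other V genes had 70.1%, 80.1%, 50.7%, 21.5% and 23.4% in the same order. TRBV14 was thus the higher in mouse-160B and mouse-160C and the lower in the other 3. In spleen it was 0 of 157 cells in mouse-155A and 5.48% in mouse-155C, where the 2 clonotypes had 2 cells each. The 161 cells of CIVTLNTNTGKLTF with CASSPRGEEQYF in mouse-160C tumor formed the largest TRBV14 clonotype, 50.8% of the paired TRBV14 cells of that table. It had 296 cells with multiplets kept, 22 without barcodes that hold a secondary chain and 106 without same-well barcodes. In 2 other tumors the most frequent were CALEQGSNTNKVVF with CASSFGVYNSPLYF in mouse-160A (10 cells) and, in mouse-164C, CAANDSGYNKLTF with a TRBJ2-3 chain (12 cells).

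The multi-cell thymus clonotypes are shown by the CDR3 nucleotides of their TRB chains, since these were recorded in both tissues. They are numbered as in the plot of shared clonotypes by the smaller of their thymus and tumor counts, and are those with at least 4 thymus cells. Capitals mark the bases between the germline TRBV14 and TRBJ stretches.
Clonotypes 1 and 9 (TRBJ1-1, mouse-160B): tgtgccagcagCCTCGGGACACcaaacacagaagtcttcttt
Clonotypes 3 and 8 (TRBJ2-7, mouse-160B): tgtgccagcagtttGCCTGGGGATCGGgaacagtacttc
Clonotype 14 (TRBJ2-1, mouse-160A): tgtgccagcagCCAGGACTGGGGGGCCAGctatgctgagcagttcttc
Clonotype 2 (TRBJ2-1, mouse-164B): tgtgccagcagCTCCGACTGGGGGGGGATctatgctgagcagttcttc
Clonotype 4 (TRBJ1-2, mouse-164B): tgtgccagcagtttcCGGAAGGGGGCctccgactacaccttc
Clonotype 5 (TRBJ1-1, mouse-164B): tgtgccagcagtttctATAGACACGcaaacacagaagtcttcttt

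In these chains between 11 and 16 germline V bases were kept, and clonotype 5 kept the whole V end. The chains of clonotypes 2 and 14, from different mice, have 16 residues each, differ at 3 of them and share TRBD2 and TRBJ2-1. The Asp-Trp-Gly that both hold occurred in 157 of all 4789 TRBV14 chains (3.28%) and in 4.56% of other chains. This pair was picked out after its values were seen.

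Most of the larger thymus clonotypes were recorded in the tumor of the same mouse. Clonotype 1 (TRAV12-1 and TRAJ12, with TRB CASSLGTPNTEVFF) had 30 thymus and 14 tumor cells in mouse-160B. Clonotype 3 (TRAV8-1 and TRAJ12, with TRB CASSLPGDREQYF) had 20 and 8 in the same mouse. Both were more frequent among TRBV14 cells of the thymus than among those of the tumor, at 10.4% and 3.13% for clonotype 1 and 6.94% and 1.79% for clonotype 3. In mouse-164B, clonotype 2 (TRAV12-1, TRAJ24) had 9 thymus and 15 tumor cells. Clonotype 4 (TRAV8D-2, TRAJ42) had 7 and 27, and clonotype 5 (TRAV17, TRAJ57) had 4 and 9. The order was reversed there, the share of TRBV14 cells being the larger in the tumor for all 3. In mouse-160A, clonotype 14 (TRAV12-2, TRAJ58) had 10 thymus cells and 1 tumor cell.

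These cell numbers moved with the filters. Without barcodes that hold a secondary chain, clonotype 3 had 5 thymus and 0 tumor cells, clonotype 4 had 0 and 3 and clonotype 5 had 1 and 4. Clonotypes 1 and 2 then had 26 and 11, and 9 and 11. With multiplets kept, clonotype 3 had 22 thymus and 27 tumor cells, so that the tumor count was the higher, and clonotype 4 had 41 tumor cells. With at least 2 transcripts per chain the counts were 9 and 5 for clonotype 1, 3 and 8 for clonotype 2, 9 and 7 for clonotype 3, 7 and 25 for clonotype 4 and 2 and 5 for clonotype 5. Clonotype 14 then had 3 thymus cells, and clonotypes 8 and 9, with 4 each before, had 2 and 0. Without any same-well copies clonotype 2 had 5 thymus cells and clonotype 3 had 5 tumor cells.

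**Figure D5:**
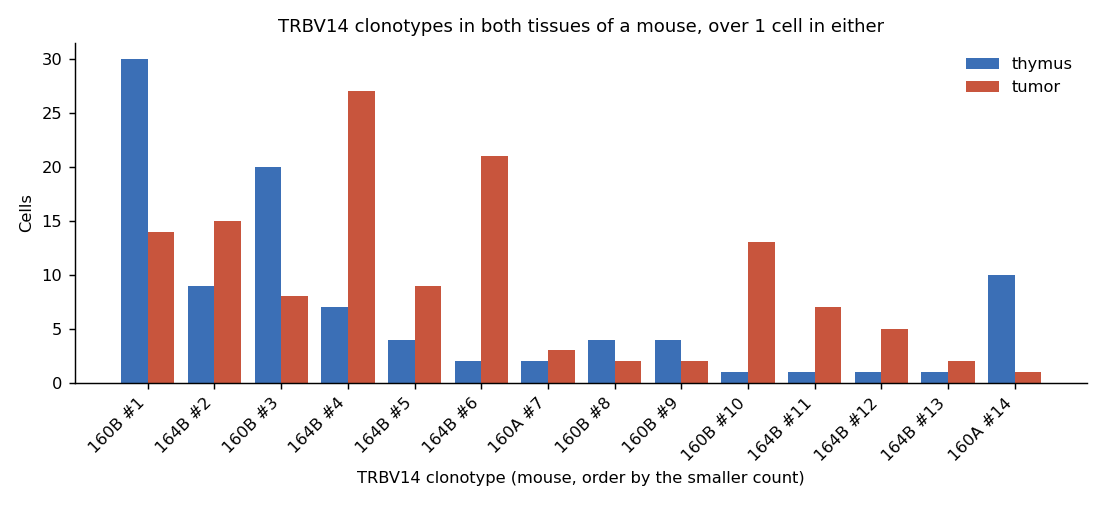
Cells (y axis) of TRBV14 clonotypes recorded in both thymus and tumor of a mouse and in over 1 cell of either tissue (x axis, by mouse and number, ordered by the smaller count), with thymus in blue and tumor in red. Clonotype 1 is the pair with 30 thymus and 14 tumor cells in mouse-160B, and clonotype 4 in mouse-164B has 7 and 27.

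All 8 TRBV14 thymus clonotypes of at least 3 cells, and 10 of the 14 of at least 2, were also in the tumor of the same mouse, and 8 of 1244 of those seen in 1 thymus cell (0.643%) were. Among other V genes 33 of 68 thymus clonotypes of at least 3 cells (48.5%), 51 of 146 of at least 2 (34.9%) and 101 of 27213 seen in 1 cell (0.371%) were in the second tissue of the mouse. These were pooled over all 7 mice, including the 2 with a spleen table. The TRBV14 clonotypes of at least 2 cells came from 3 mice with a tumor table, so the shares are not of like mice. Some of the 8 TRBV14 clonotypes also share a TRB chain and may be single clones. In all, 18 TRBV14 clonotypes were in both tissues, 2 in mouse-160A, 5 in mouse-160B and 11 in mouse-164B, and none in mouse-155A, mouse-155C, mouse-160C or mouse-164C. Without mouse-164B 7 were left. They held 11.4%, 20.5% and 8.36% of the paired TRBV14 thymus cells of the 3 mice, and shared clonotypes of other V genes held 1.69%, 2.96% and 2.14% in these mice. In the 4 mice with none, a count of 0 allows the same limits on the share of thymus cells as given above for clonotypes of several cells, at most 5.66%.

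The well check gave little overlap for these clonotypes. None of their thymus cells shared later wells and sublibrary with a barcode of the same TRB chain in the other tissue of the mouse. Of their tumor cells 1 did, a cell of clonotype 10, which had 1 thymus and 13 tumor cells in mouse-160B. Matches were also few for some of these chains in other mice. For the chain of clonotypes 3 and 8, 0 of 17 barcodes of other mice matched the wells of mouse-160B thymus. For the chain of clonotypes 1 and 9 it was 1 of 11, and all of these barcodes had 1 transcript. A lack of matches thus does not tell how a chain came to be in a second table, which was not tested. All 15 of their TRB chains were, however, recorded in more than 1 mouse, from 2 to 7 of them. A recount without TRB chains found in more than 1 mouse therefore left 0 shared and 2 multi-cell thymus clonotypes. Of the 18, TRAV12-1 was used by 5, TRAJ24 by 4 and TRAJ12 by 3, counts that include the 1-base TRA variants described next. Among all TRBV14 thymus clonotypes these genes had 9.46%, 1.11% and 3.498%. CASSF opened the TRB chain of 8 of the 18 clonotypes. These features were counted after the clonotypes had been seen.

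Some TRB chains came with more than 1 TRA chain. In mouse-160B thymus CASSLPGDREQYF was paired with the TRA of clonotype 3 in 20 cells and with that of clonotype 8, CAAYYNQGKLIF, in 4, and 17 barcodes held both. In the tumor of that mouse they had 8 and 2 cells, with 9 barcodes holding both. In mouse-160C tumor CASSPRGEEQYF was paired with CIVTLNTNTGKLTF in 161 cells and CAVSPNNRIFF in 38, and 152 barcodes held both. A cell with 2 TRA chains is entered under the one listed as primary, so these pairs count as separate clonotypes here and may be single clones. By contrast, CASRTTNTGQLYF had 44 paired barcodes with 30 different TRA chains, of which the most frequent had 5 cells. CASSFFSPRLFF had 33 paired barcodes with 27 TRA chains in mouse-164B tumor.

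Other pairs differed by 1 base of the TRA CDR3. Positions are counted from 1 at the first base of the CDR3. Clonotypes 1 and 9 share their TRB chain and had 30 and 4 thymus cells in mouse-160B, and their TRA sequences differ by A10G. The TRB chain of clonotype 2 occurred with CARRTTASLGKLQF in 9 and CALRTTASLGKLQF in 1 thymus cell of mouse-164B, which differ by G8T. Both minor forms were also counted among the 18 shared clonotypes, with 2 and 1 tumor cells.

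Between mice, 6 paired TRBV14 clonotypes were recorded in more than 1 animal, and in 3 of them the cells had the same later wells and sublibrary. In 1 of the 6 the TRA CDR3, CAASAQCSPGT, ended in Thr rather than Phe. Single TRB chains crossed mice more often. In all, 963 of 4789 TRBV14 chains (20.1%) and 21.5% of other chains were in at least 2 mice. Of the TRBV14 chains, 26 were in at least 5 mice and 9 in all 7. Those in all 7 included the 4 largest tumor chains, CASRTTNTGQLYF, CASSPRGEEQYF, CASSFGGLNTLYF and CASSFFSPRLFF, the chains of clonotypes 2, 3, 4 and 7, and the leading chain of mouse-164C tumor clonotypes.

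For the 26 chains the mouse with most barcodes differed sharply from the others. In the other mice they made 810 barcodes, of which 786 (97.0%) had 1 transcript and 32 (3.95%) had a TRA chain. Of all TRBV14 barcodes, 51.7% had 1 transcript and 33.4% had a TRA chain. Where the nucleotide sequence could be read, 705 of 712 of these barcodes (99.0%) carried the same nucleotides as in the leading mouse, and 325 of the 810 matched its later wells and sublibrary. The leading table was a tumor for 22 of the 26.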

How the data were processed

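Evercode TCR libraries of 8 sublibraries were processed by the authors with software of Parse Biosciences. Which release and which V(D)J reference it used is not given in the sources used here, and the submitters' processing notes name GRCm39. Each deposited barcode table holds transcript counts per chain and a multiplet mark. Clonotypes were recounted from these tables. Nucleotide CDR3s came from the deposited annotation tables, held only in part for mouse-160B thymus (92.7% of TRB barcodes), mouse-164B thymus (41.1%) and mouse-164C tumor (30.4%).

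Barcodes marked as multiplets were left out, which removed 1566 TRBV14 barcodes (13.9%, and 11.0% of other TRB barcodes). In mouse-160C tumor 24.5% and 12.6% were removed. TRBV14 barcodes with a secondary TRB chain (1423, 14.7%) were kept under their primary chain, and 25.8% of the paired ones had a secondary TRA chain. In 4 TRBV14 barcodes the CDR3 held a stop or frame symbol. A clonotype is a TRA CDR3 joined to a TRB CDR3, both as amino acids. Germline stretches were read as the longest match to the GRCm39 segments from either end of the CDR3, tested on simulated junctions. Python 3.11.15, pandas 2.3.3 and scipy 1.17.1 were used.

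No test between groups was run, because the labels put no table in a group. Within each mouse, values of the thymus were set beside those of its second tissue, and tables far from others of their tissue were marked by Dixon's ratio. The members and all lists were chosen with earlier results of these data known. Named were the J, TRAV and TRAJ genes with the highest shares or extreme ratios, the most frequent and the shared clonotypes, thymus clonotypes of at least 3 cells, the nearest V genes and the chains found in most mice. Alternatives changed the multiplet filter, the transcript minimum, secondary chains, the unit counted and the clonotype definition, or left out a sublibrary in turn. Chosen after seeing the data were leaving out each mouse, chains found in more than 1 mouse, and barcodes that shared later wells, sublibrary and chain across tables.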

Additional observations from a re-analysis of the deposited data

Results flagged for a closer look

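Of 20 sets of thymus or tumor tables examined for a value far from the others, 2 held one, and chance marks about 1 in 20 such sets (5%). The TRBV14 share of paired clonotypes was 4.90% in mouse-155A thymus, above the 4.20 to 4.47% of the 6 other thymus tables. By distinct chains that table was also the highest, at 4.74%. The iNKT-like share of TRBV14 clonotypes was 0.196% in mouse-164C tumor, from 1 of 509 clonotypes, and 0 in the 4 other tumors, where 0 allows shares from 0.857% in mouse-160B to 13.04% in mouse-160A. A single clonotype gave this difference.

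TRBV14 was also recorded as the secondary TRB chain of 1219 barcodes, which no comparison used. This was 5.11% (4.84 to 5.40%) of the 23835 barcodes with a secondary TRB chain, close to the 5.13% among primary chains. The lowest share by table was 1.97% (mouse-160A tumor) and the highest 7.72% (mouse-164B tumor), with 7.38% in mouse-160C tumor.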

How the results depend on the processing

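Thymus and the second tissue of each mouse were paired through the table names and their differences given as values, with no test. Of 147 recounts of the 20 main values that did not leave out a sublibrary or a mouse, 122 stayed within the spread between tables, the counting interval or 1.5 times the count. Of 798 recounts of single tables, genes and clonotypes, which include those without 1 sublibrary, 691 did and 107 moved. A change of direction was marked only for the TRAV and TRAJ ratios to other V genes, and 0 of these turned. TRBJ1-2 and CDR3 length stayed lower in TRBV14 in 14 of 14 tables without any 1 sublibrary. TRBJ1-2 was lower in 13 of 14 by barcodes and without chains of more than 1 mouse, and CDR3s were shorter in 13 of 14 with at least 2 transcripts.

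With multiplets kept, the iNKT-like share of TRBV14 thymus clonotypes was 2.01%. With at least 2 transcripts per chain, the median share of distinct chains in spleen and tumor was 5.20%, CASSF 27.6%, the share of thymus cells in multi-cell clonotypes 5.43% in 8 clonotypes, the share in clonotypes of both tissues 5.87% and the clonotypes of more than 1 mouse 0. Without secondary chains, multi-cell thymus clonotypes were 7 and those of more than 1 mouse 2. Transcripts in place of barcodes gave a median thymus share of 4.04%. Counting each chain once raised the mice with the higher spleen or tumor share to 7. Without chains of more than 1 mouse, the median thymus share was 4.04%. The spleen or tumor was then higher in 7 mice by barcodes and in 4 by paired clonotypes, and its median of distinct chains was 5.14%. TRBJ2 was then 62.6%, TRBD1 53.2% and CASSF 27.6%. Multi-cell thymus clonotypes were 2 with 0.458% of cells. Clonotypes of both tissues were 0 with 0 cells, as were those of more than 1 mouse. Without same-well barcodes of fewer transcripts the latter were 3, and without all same-well barcodes 3, with TRBJ2 at 64.3%. The causes were not tested.

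Leaving out a sublibrary or, for pooled values, a mouse gave 3.41 to 9.29% for the share of cells in multi-cell thymus clonotypes and 7 to 14 clonotypes. It gave 7 to 18 clonotypes in both tissues with 3.88 to 9.29% of thymus cells, and 4.74 to 4.98% for the median of distinct chains in spleen and tumor. Depth limited the paired values, with 23 TRBV14 clonotypes in mouse-160A tumor and 53 in mouse-155C thymus.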
